A study of Mus musculus with 4 samples.

Results

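Neutrophil granule and identity genes are represented here by 7 genes, chosen by symbol: S100a8, S100a9, Ngp, Mmp8, Ltf, Retnlg and Ly6g. All 7 were among the 4121 genes of the deposited table. The RNA-seq libraries came from C57BL/6 animals 8 weeks old, 2 samples being wild type (WT) and 2 Elf4-/-, with the inflamed distal colon taken at day 6 after 3% DSS (dextran sulfate sodium), which damages the gut lining and causes colitis. The labels do not say that the samples of a genotype were separate animals. Both genotypes received DSS, so untreated colon is no part of the comparison, and the sources used here do not give the way the Elf4 allele was made. The deleted gene, Elf4, encodes an Ets-family transcription factor. The table holds 1 FPKM value per gene and genotype (fragments per kilobase of transcript, scaled to the mapped fragments of the library), given by the authors for the genotype as a whole. An SD, an interval or a test of the genotypes can therefore not be given here, and depth is unknown.

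Neutrophils mature in the bone marrow, where they fill granules in sequence: azurophil granules first, then specific granules, then gelatinase granules, with secretory vesicles last. Granule messages are made mainly by marrow precursors and are lower in circulating neutrophils, whereas S100a8 and S100a9 messages stay high in mature cells. In colitis neutrophils enter the mucosa, and the protein products of S100a8 with S100a9 (calprotectin) and of Ltf (lactoferrin) are measured in stool as signs of gut inflammation. Ly6G, a lipid-anchored surface protein, is the usual antibody target for mouse neutrophils.

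The members divided by direction. Of 7 members, 5 rose in the knockout colon (S100a8, S100a9, Ngp, Retnlg and Mmp8) and 2 fell (Ly6g and Ltf). Among all listed genes, 48.0% were higher and 52.0% lower. Each of the 5 rises was at least 10-fold, a size that 2.84% of listed genes reached upward. Both falls were between 4-fold and 10-fold. Falls of at least 4-fold made up 24.5% of listed genes, falls of at least 10-fold 9.17%, and rises of at least 4-fold 12.9%. The median log2 ratio of knockout over wild type, computed on FPKM + 1, was 3.55 for the members and -0.76 for all listed genes. Rose and fell refer to the authors' own call: in the authors' deposited table every q was below 0.05, and no fold was under 2 after rounding. Where no q stands beside a gene, its q in the authors' deposited table was 0.000372, the lowest in that table. This lowest q is shared by the 2233 of 4121 listed genes at the smallest p, so it ranks none of them. In bulk tissue, fewer cells of a type and less RNA per cell cannot be told apart. Elf4 fell from 16.4 to 3.51 FPKM.

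The order of the levels was rearranged. In wild type, Ly6g was the highest member at 854 FPKM, followed by S100a9 at 178, S100a8 at 101.4, Retnlg at 26.3, Ltf at 14.4, Mmp8 at 1.74 and Ngp at 0.357 FPKM. In the knockout, S100a9 was highest at 1888 FPKM, followed by S100a8 at 1202, Retnlg at 643, Ly6g at 145.7, Mmp8 at 94.1, Ngp at 38.5 and Ltf at 2.05 FPKM. Which neighbors in these orders differ beyond the spread between samples cannot be given. Ly6g alone made up 72.6% of the summed FPKM of the members in wild type and 3.63% in the knockout. Without Ly6g, the summed level of the members was 322 FPKM in wild-type and 3867 FPKM in knockout colon.

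**Figure D1:**
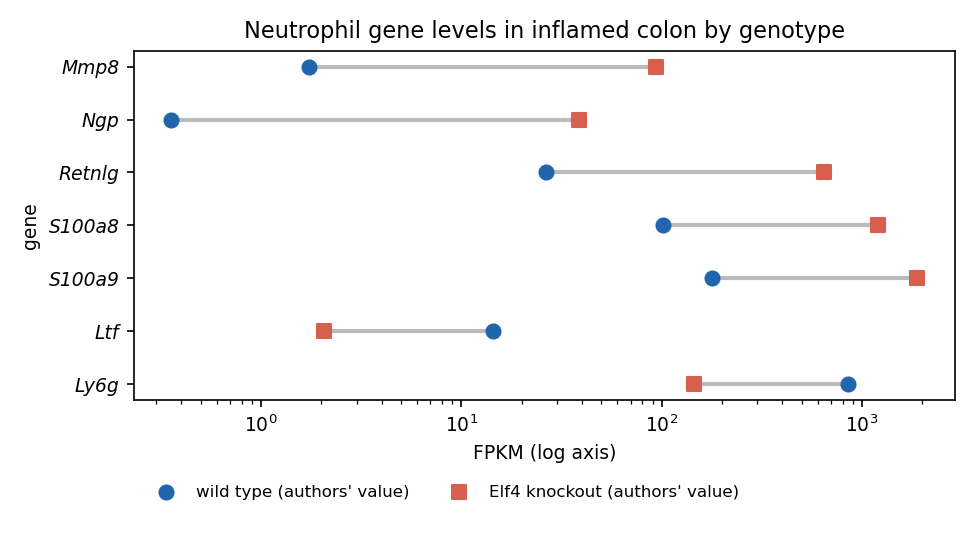
Level of each member in FPKM (horizontal log axis) in wild type (blue circles) and Elf4 knockout (orange squares), 1 value per genotype as the authors gave it, with a gray line joining both. The squares lie to the right of the circles for 5 genes and to the left for Ltf and Ly6g, and Ngp spans the widest interval, from 0.357 to 38.5 FPKM.

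S100a8 and S100a9 encode the subunits of calprotectin, a calcium- and zinc-binding complex that makes up much of the neutrophil cytosol. S100a8 (ENSMUSG00000056054) lies at chr3:90668978-90670035 on the plus strand of GRCm38, and S100a9 (ENSMUSG00000056071) at chr3:90692632-90695721 on the minus strand, with 22.6 kb between them. Each has 3 exons in its first annotated transcript. S100a8 was at 101.4 FPKM in wild-type colon and 1202 FPKM in knockout colon, a rise of 11.8-fold. S100a9 went from 178 to 1888 FPKM, a 10.6-fold rise. The pair kept nearly the same proportion, with S100a8 at 0.571 of S100a9 in wild type and 0.637 in the knockout. Among the 4121 listed genes, S100a9 moved from rank 290 in wild type to rank 16 in the knockout, and S100a8 from rank 457 to rank 26.

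Other S100 genes of the same chromosomal cluster moved the opposite way. Of 16 S100 family genes, 6 were listed, of which S100a8 and S100a9 rose and 4 fell. S100a6 fell from 2176 to 729.7 FPKM, S100a16 from 396 to 84.5 FPKM and S100a14 from 281 to 16.2 FPKM, and these lie 44.8, 125.8 and 140.1 kb from S100a8. S100a10, an annexin partner, fell from 1548 to 308 FPKM. The family median log2 ratio was -1.89. Stratified squamous epithelium can also express S100a8 and S100a9, and 0 of 9 squamous marker genes were in the table. A gene outside the table missed the authors' call, which says nothing of its level, so a squamous part in these values was not tested.

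Of 9 receptor and signaling genes for S100A8/S100A9, 4 were listed and 4 rose. Cd14, a co-receptor of Toll-like receptor signaling, rose from 86.5 to 273 FPKM. Cd36, a scavenger receptor gene, rose from 16.4 to 78.5 FPKM and Emb, encoding embigin, from 21.2 to 65.6 FPKM. Ager, which encodes the receptor RAGE, rose from 1.11 to 4.12 FPKM (authors' deposited table, q = 0.00263). Of transcript 50-base stretches of Emb, 22.2% also occur in a transcript of another annotated gene, so its value is uncertain.

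The upstream sequences of the 2 most abundant members that rose and of the 2 that fell are shown because the deleted factor belongs to the Ets family, whose members bind DNA around a GGAA core. They are RefSeq sequences on GRCm38.p6, read 5′ to 3′ on the gene's strand up to the first base that GENCODE annotates as exon. GGAA on either strand is in capitals (TTCC where it lies on the other strand). The windows are chr3:90668821-90668977 (plus strand, 157 bases), chr3:90695722-90695971 (minus strand, 250 bases), chr15:75155011-75155239 (plus strand, 229 bases) and chr9:111019042-111019270 (plus strand, 229 bases).
S100a8: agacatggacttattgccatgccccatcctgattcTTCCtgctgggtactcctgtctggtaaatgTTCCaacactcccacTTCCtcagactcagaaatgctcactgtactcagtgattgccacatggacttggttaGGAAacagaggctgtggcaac
S100a9: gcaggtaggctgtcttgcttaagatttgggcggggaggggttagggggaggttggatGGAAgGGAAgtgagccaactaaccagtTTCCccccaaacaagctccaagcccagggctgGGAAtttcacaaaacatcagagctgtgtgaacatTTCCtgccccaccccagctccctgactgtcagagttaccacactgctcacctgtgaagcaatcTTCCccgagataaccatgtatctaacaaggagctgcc
Ly6g: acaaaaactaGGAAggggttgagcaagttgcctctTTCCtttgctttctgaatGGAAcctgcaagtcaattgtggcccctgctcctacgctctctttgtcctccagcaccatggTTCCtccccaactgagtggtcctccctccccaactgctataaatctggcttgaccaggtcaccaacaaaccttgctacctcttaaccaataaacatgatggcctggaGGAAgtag
Ltf: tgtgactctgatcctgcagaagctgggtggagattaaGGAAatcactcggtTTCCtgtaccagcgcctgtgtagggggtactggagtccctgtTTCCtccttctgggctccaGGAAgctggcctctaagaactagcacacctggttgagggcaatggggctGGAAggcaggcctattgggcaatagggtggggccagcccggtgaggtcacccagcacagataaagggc
The counts below are over the 250 bases before the RefSeq start, a window that was the same length for all promoters. GGAA occurred in 7 of 7 members, 1 to 7 times, and in 93.4% of 27025 promoters. The longer form GGAAGT, each match of which contains a GGAA, occurred in 4 of 7 members (S100a8, S100a9, Mmp8 and Ly6g) and in 5401 of 27025 promoters. The C/EBP consensus TTNNGNAA occurred in 7 of 7 members and in 36.9% of promoters. TATAAA occurred in 2 of 7 members, S100a8 and Ly6g, and in 3504 of 27025 promoters. Both strands were searched. The members that rose and those that fell were not separated by these motifs, since GGAAGT was found in 3 of the 5 that rose and 1 of the 2 that fell. Such a match describes letters in a window and shows no binding.

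Ngp, Mmp8 and Ltf all encode proteins of specific granules, yet they did not move together. Ngp (ENSMUSG00000032484, chr9:110419747-110423012, plus strand) encodes neutrophilic granule protein, a cystatin-like protein related to cathelicidin. Its level was 0.357 FPKM in wild-type colon and 38.5 FPKM in knockout colon, a rise of 108-fold (authors' deposited table, q = 0.000998). The size of this rise rests on a low wild-type level: the log2 ratio was 4.86 after adding 1 to both values, 6.40 after adding 0.1 and 3.02 after adding 5.

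Mmp8 (ENSMUSG00000005800, chr9:7558456-7568485, plus strand, 10 exons in its first annotated transcript) encodes neutrophil collagenase, which is stored in specific granules and cuts fibrillar collagen. Its level was 1.74 FPKM in wild-type colon and 94.1 FPKM in knockout colon, a rise of 54.0-fold. Its log2 ratio, 5.12, was the fourth largest among the 1980 genes that rose. This size rests on a low wild-type level: the log2 ratio of Mmp8 was 5.68 after adding 0.1 and 3.88 after adding 5. After adding 5, Retnlg stood above it at 4.37. Of 23 matrix metalloproteinase genes, 13 were listed, of which 12 rose and 1 fell (list median log2 ratio 2.11). Mmp13, another collagenase gene, rose from 34.5 to 437 FPKM, and the stromelysin genes Mmp3 and Mmp10 rose from 148 to 1192 FPKM and from 69.8 to 402 FPKM. Mmp15, a membrane-bound family member, fell from 18.1 to 7.28 FPKM. Mmp8 was at 0.0505 of Mmp13 in wild type and 0.215 in the knockout.

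Of 9 genes for metalloproteinase inhibitors and collagen substrates, 6 were listed and 6 rose, with a median log2 ratio of 1.33. Timp1, a secreted inhibitor of these enzymes, rose 2.77-fold from 71.8 to 199 FPKM (authors' deposited table, q = 0.00335), and Timp2 rose 2.62-fold. The membrane inhibitor gene Reck rose 2.91-fold and A2m, a broad protease trap, 3.25-fold. The fibrillar collagen genes Col1a2 and Col3a1 rose 2.18-fold and 2.67-fold (authors' deposited table, q = 0.00773 for Col3a1). Mmp8 stood at 0.0242 of Timp1 in wild type and 0.473 in the knockout.

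Ltf (ENSMUSG00000032496, chr9:111019271-111042767, plus strand, 17 exons in its first annotated transcript) encodes lactoferrin, an iron-binding protein of specific granules that glandular epithelia also secrete. Its level was 14.4 FPKM in wild-type colon and 2.05 FPKM in knockout colon, a fall of 7.01-fold, while its granule companion Ngp rose. Ltf was at 40.4 times Ngp in wild type and at 0.0534 of Ngp in the knockout. The log2 ratio of Ltf was -2.33 after adding 1 to both values and -1.46 after adding 5.

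Of 11 specific granule genes, 6 were listed, of which 4 rose and 2 fell (list median log2 ratio 3.34). Besides Ngp and Mmp8, Lcn2, whose product binds bacterial siderophores, rose from 88.7 to 1163 FPKM. Hp, the haptoglobin gene, rose from 57.4 to 463 FPKM. The part of cells other than neutrophils in the rises of Lcn2 and Hp was not tested. Pglyrp1, which encodes a peptidoglycan recognition protein, fell from 712 to 119 FPKM beside Ltf. Of 7 azurophil granule genes, 0 were in the table.

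Of 12 genes of the transferrin family and of iron binding, 8 were listed, of which 5 rose and 3 fell (median log2 ratio 1.71). Slc11a1, a metal transporter of phagosomes, rose 4.33-fold. Fth1, the ferritin heavy chain gene, rose from 2667 to 11087 FPKM (authors' deposited table, q = 0.000694, chosen after its values were seen). The genes that fell with Ltf were Tfrc, the transferrin receptor gene (47.2 to 14.8 FPKM), and Slc40a1, the iron exporter ferroportin (104 to 30.7 FPKM).

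Retnlg (ENSMUSG00000022651) encodes resistin-like gamma, a small secreted protein abundant in neutrophils and their marrow precursors. The table places it at chr16:48872608-48874498, on the plus strand, and its annotated transcript has 4 exons. Its level was 26.3 FPKM in wild-type colon and 643 FPKM in knockout colon, a rise of 24.5-fold, and moved from rank 1272 to rank 50 among listed genes. Its neighbor Retnlb, 53.7 kb away, went the opposite way, falling 6.46-fold from 424 to 65.5 FPKM. Retnlb encodes a resistin-like protein that goblet cells secrete. Retnlb was at 16.1 times Retnlg in wild type and at 0.102 of Retnlg in the knockout. Retn, which encodes resistin, rose from 4.46 to 11.2 FPKM (authors' deposited table, q = 0.0300), so 2 of the 3 listed of 4 resistin family genes rose.

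**Figure D2:**
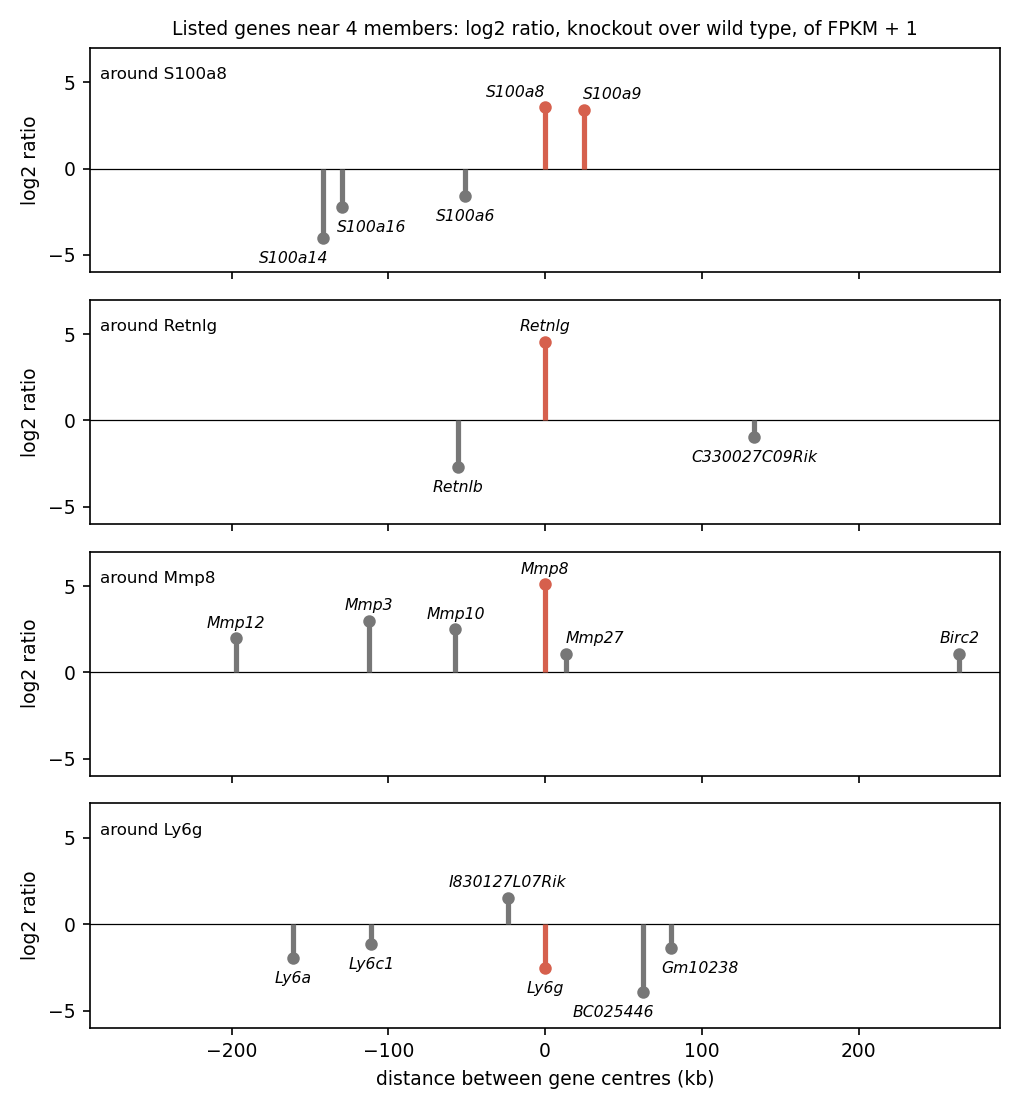
Log2 ratio of knockout over wild type (vertical axis, FPKM + 1) of listed genes within 250 kb of S100a8, Retnlg, Mmp8 and Ly6g, against the distance between gene centers in kb. Members are in orange. S100a8 and S100a9 point up while S100a6, S100a14 and S100a16 point down, Retnlb points down beside Retnlg, and the listed metalloproteinase genes beside Mmp8 all point up.

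Ly6g (ENSMUSG00000022582, chr15:75155240-75159126, plus strand) was at 854 FPKM in wild-type colon and 145.7 FPKM in knockout colon, a fall of 5.86-fold. This was against the direction of the other neutrophil surface genes. Of 23 neutrophil surface receptor genes, 15 were listed, of which 14 rose and Ly6g alone fell (median log2 ratio 1.68). Il1r2, the interleukin-1 decoy receptor gene, rose from 6.83 to 157 FPKM. The lectin receptor gene Clec4d rose from 12.5 to 125.6 FPKM and Trem1, an amplifier of myeloid activation, from 1.91 to 22.4 FPKM. Cxcr2, the chemokine receptor that draws neutrophils into tissue, rose from 4.03 to 28.9 FPKM, and Csf3r, the G-CSF receptor gene, from 10.5 to 25.5 FPKM (both chosen after their values were seen). Csf3r shares 11.5% of its 50-base stretches with other transcripts. Ly6g was at 212 times Cxcr2 in wild type and 5.04 times Cxcr2 in the knockout. Against Csf3r the corresponding values were 81.2 and 5.71, and against the specific granule gene Pglyrp1, which also fell, 1.20 and 1.22. Pglyrp1 does not stand for its list, because 4 of the 6 listed specific granule genes rose. Of the 50-base stretches of the longest Ly6g transcript, 0.448% also occur in transcripts of other genes (Gm28116 and Ly6i). The share was 0% for the other 6 members.

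Epithelial genes fell in the same comparison. Of 15 epithelial marker genes, 15 were listed and 15 fell, by 2.60-fold to 19.4-fold, with a summed level of 10173 FPKM in wild-type and 782 FPKM in knockout colon, and 0 of them were at 0 in either genotype. Of 11 surface colonocyte markers, 10 were listed and 10 fell, from a summed 7362 to 919 FPKM. Ly6g was at 0.951 of Epcam, the pan-epithelial adhesion gene, in wild type and at 1.76 times Epcam in the knockout (Epcam was chosen after its values were seen). The part of this fall in that of Ly6g, Ltf, Pglyrp1 and Retnlb was not tested. FPKM is scaled to the mapped fragments of the library. The part of the epithelial fall in modest rises was therefore also not tested. Those of the metalloproteinase inhibitor and collagen genes were 2.18-fold to 3.25-fold. Of 25 Ly6 family genes, 7 were listed, of which 6 fell (list median log2 ratio -1.97). Lypd8, an epithelial gene whose product binds flagella, fell from 9424 to 1167 FPKM, and Ly6g6e from 13.8 to 0.882 FPKM. Gpihbp1, a capillary endothelial gene, was the 1 that rose, from 1.87 to 28.4 FPKM.

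**Figure D3:**
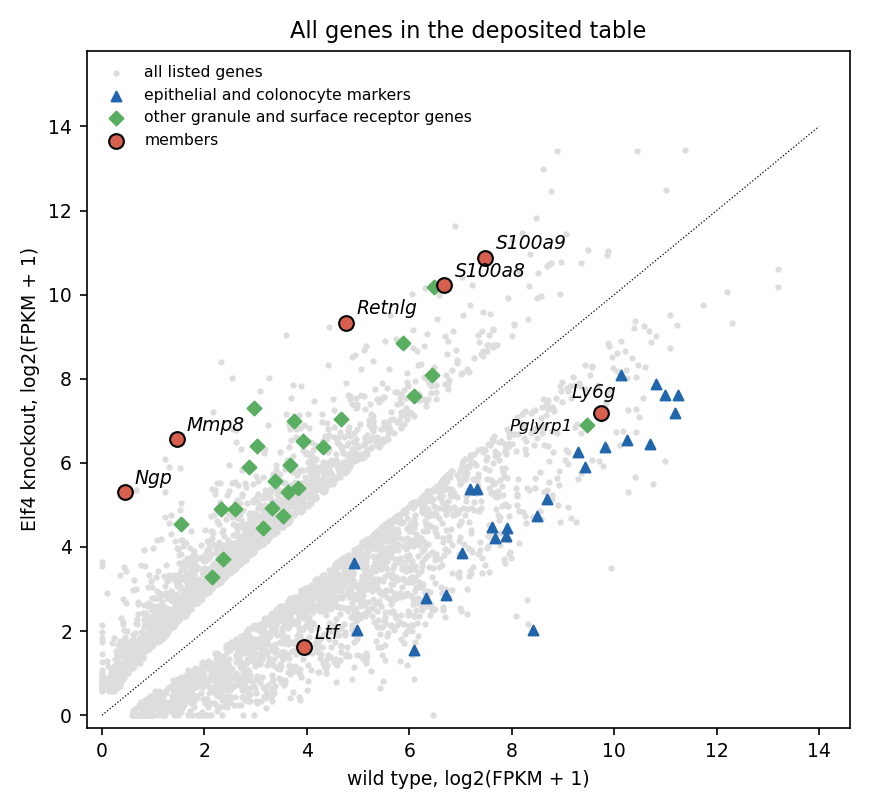
Level in the Elf4 knockout (vertical axis) against wild type (horizontal axis), both as log2(FPKM + 1), for the 4121 listed genes in gray, with members in orange, other granule and surface receptor genes as green diamonds and epithelial and colonocyte markers as blue triangles. The dotted line marks equal levels. The 5 members that rose and 23 of 24 green diamonds lie above it, and Ly6g, Ltf and Pglyrp1 lie below it with the triangles.

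Genes of the later stages, gelatinase granules and secretory vesicles, rose without exception among those listed. Of 9 gelatinase granule and secretory vesicle genes, 8 were listed and 8 rose, with a median log2 ratio of 2.34. Fpr1, which encodes a receptor for bacterial formyl peptides, rose 11.7-fold from 7.10 to 83.4 FPKM, and Fpr2 rose 5.38-fold. Adam8, a leukocyte membrane protease gene, rose 9.36-fold from 6.28 to 58.8 FPKM. Itgam, the integrin subunit CD11b of neutrophils and macrophages, rose 6.41-fold from 14.1 to 90.5 FPKM. Both Fpr2 and Itgam share much sequence with other annotated transcripts (37.2% and 72.4% of 50-base stretches), so their values are uncertain. Leaving out the members, 24 of the 45 genes in the azurophil, specific, gelatinase and surface lists were listed, of which 23 rose, with a median log2 ratio of 2.23.

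Stefins, which inhibit cysteine proteases and are abundant in mouse neutrophils, rose as well. Of 8 stefin genes, 3 were listed and 3 rose. Stfa2l1 went from 4.84 to 44.7 FPKM. Stfa2 was listed at 0 in wild type and at 2.91 FPKM in the knockout, and Stfa3 at 0 and 1.12 FPKM (authors' deposited table, q = 0.0338). Stfa2 and Stfa2l1 share part of their sequence (15.9% and 24.6% of 50-base stretches occur elsewhere), so the split between them is uncertain. Of 7 genes for the NADPH oxidase and extracellular traps, 1 was listed: Padi4, which citrullinates histones, rose from 0.511 to 2.25 FPKM (authors' deposited table, q = 0.00692).

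Transcription factors of granulocytes moved both ways. Of 9 genes, 6 were listed, of which 4 rose and 2 fell (list median log2 ratio 1.06). Cebpb, a factor of emergency granulopoiesis, rose from 105 to 386 FPKM and Cebpd from 59.8 to 186 FPKM. Spi1, encoding PU.1, rose from 23.9 to 49.7 FPKM (authors' deposited table, q = 0.00128), and Runx1 from 9.44 to 21.5 FPKM. Gfi1, which directs neutrophil differentiation, fell from 3.86 to 1.06 FPKM (authors' deposited table, q = 0.00288). Klf5, a zinc finger factor gene, fell 14.9-fold from 69.1 to 4.65 FPKM. The 15 epithelial marker genes fell 2.60-fold to 19.4-fold, and the part of that fall in Klf5 was not tested. Cebpb and Cebpd share 18.1% and 13.9% of their 50-base stretches with transcripts of Tmem189 and Spidr, respectively.

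Signals that produce and attract neutrophils rose beside the members. All 8 listed of 9 such genes rose (list median log2 ratio 4.30), with Csf3, the gene for G-CSF, at 54.5-fold, Cxcl2 at 46.9-fold and Cxcl3 at 41.7-fold. Ppbp, a chemokine of platelets, rose 68.6-fold, from a low wild-type level of 0.584 FPKM to 40.1 FPKM. On FPKM + 1 its log2 ratio was 4.70, below those of Csf3 (5.50), Cxcl2 (5.43) and Cxcl3 (5.03).

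**Figure D4:**
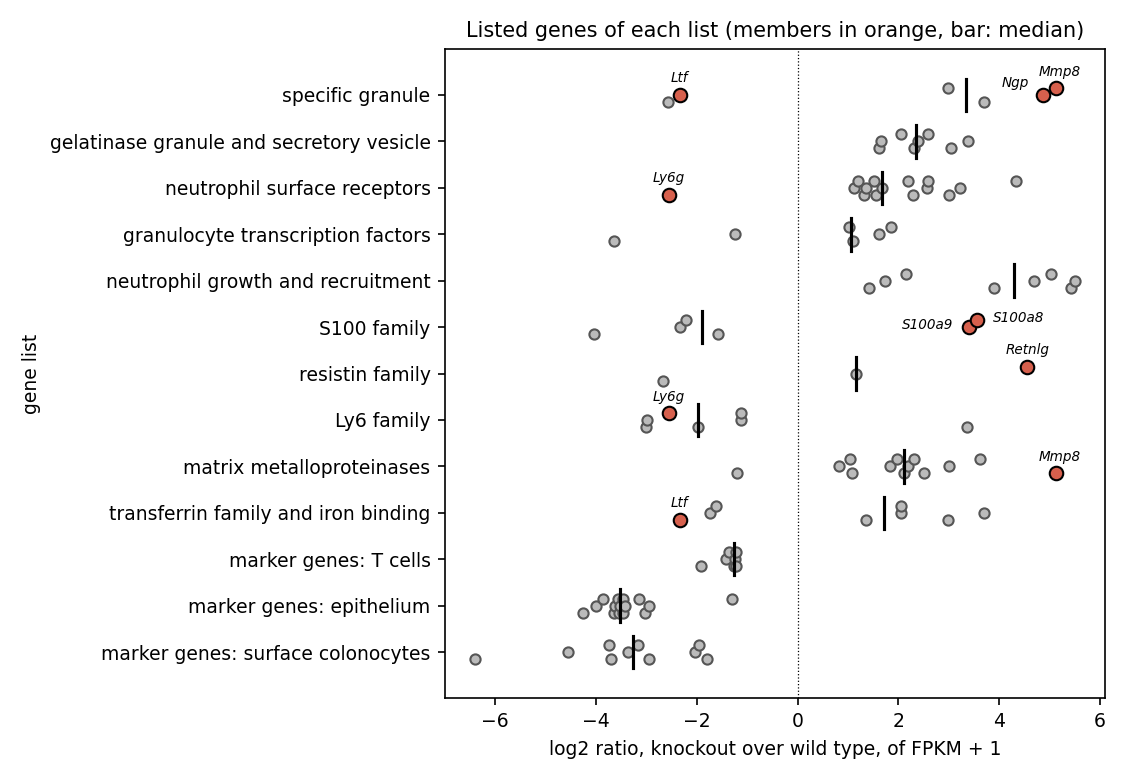
Log2 ratio of knockout over wild type of FPKM + 1 (horizontal axis) for the listed genes of 13 gene lists, 1 circle per gene, with members in orange and named and a black bar at each list's median. Ly6g lies left of 0 among surface receptors that lie right of it, and also left of 0 in the Ly6 family with 5 of its 6 other genes. S100a8 and S100a9 lie right of 0 with the other S100 genes on the left, and Retnlg lies right of 0 with Retn, apart from Retnlb.

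Markers of other leukocytes were listed only in part. The table held 3 of 12 monocyte and macrophage markers, and all 3 rose, from a summed 66.5 to 211 FPKM: Fcgr1 (authors' deposited table, q = 0.0186), Mrc1 and Cd68. Of 8 eosinophil markers, 3 were listed and 3 rose, from a summed 1.56 to 7.27 FPKM: Siglecf (q = 0.0418), Ccr3 and Ear6 (q = 0.000694), which was listed at 0 in wild type, with these q from the authors' deposited table. Of 8 T cell markers, 7 were listed and 7 fell, from a summed 130 to 45.8 FPKM, with folds from 2.45 to 4.29. The largest differences in log2(FPKM + 1) among them were at Cd3g, Cd3e, Trbc2 (authors' deposited table, q = 0.00263) and Cd8a. Of the 50-base stretches of Trbc2, 44.0% also occur in Trbc1, so its value is uncertain. Of 7 B cell markers, 3 were listed and 3 fell (Ms4a1, Cr2 and Fcer2a), from a summed 32.5 to 7.74 FPKM. Of 8 mast cell markers, 3 were listed: Mcpt1 and Mcpt2 fell 7.95-fold and 17.0-fold, and Kit rose 2.22-fold (authors' deposited table, q = 0.00184). Of 5 general leukocyte genes, Ptprc among them, 0 were in the table. The part of other myeloid cells in the rise of S100a8, S100a9 and the receptor genes was not tested.

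The listed genes with levels most like each member's were found by distance in the plane of log2(FPKM + 1) of both genotypes, which by construction picks genes of the member's own direction. Nearest to S100a8 was Lcn2 at a distance of 0.197, followed by the immunoglobulin segments Ighv7-3 and Igkv8-27. Nearest to S100a9 were Igkv8-24 at 0.661, Ighv2-9-1 and Mmp3. Ngp lay closest to Ppbp at 0.231, then to B230307C23Rik and 8430408G22Rik (authors' deposited table, q = 0.0269). Retnlg lay closest to Hmox1, the heme oxygenase gene, at 0.354, then to Mmp13 and the platelet chemokine gene Pf4. Mmp8 lay closest to Arg1, the arginase gene, at 0.529, then to Gm26825 (authors' deposited table, q = 0.00811) and the macrophage scavenger receptor gene Marco. Ly6g lay closest to Ighv8-8 at 0.152, then to the trypsin inhibitor gene Spink1 and to AW112010. Ltf lay closest to BC016579 at 0.0195, then to Wwc1 and Camsap3 (authors' deposited table, q = 0.0445). Each likeness rests on 2 values. Values of immunoglobulin segments are uncertain because similar copies can share reads.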

How the data were processed

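The 4 samples (2 wild type, 2 Elf4 knockout, all DSS colon) were made into mRNA-seq libraries with a VAHTS kit, per the labels' protocols. The submitters' processing notes list Bowtie 0.12.2, Cufflinks 2.2.1 and mm8, without their roles. Per the file headers, the deposited values are 1 FPKM per gene and genotype, with the p-value and q-value of the authors' comparison. By the values, 4121 genes with q up to 0.0499971 are listed. Genes outside the table are not analysed here.

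Of the gene identifiers, 4116 occur in GENCODE M21 (GRCm38) and 4114 overlap their gene there. After adding 1 to the start, 6 of 7 members had the annotated start and end, and Retnlg differed. Coordinates are therefore on GRCm38.

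The 25 gene lists, the members among them (253 genes, 129 listed), were chosen with earlier results of these data known, so their counts are descriptions. Log2 ratios used FPKM + 1, and folds used FPKM alone. No test of any kind was run on 1 value per genotype. Genes listed at 0 have no fold and counted as past any fold limit. Named were Elf4, the members, every listed gene of a list with up to 6 listed and otherwise the 4 largest log2 ratios and those against the list's majority, and the 3 genes nearest each member. The epithelial and surface colonocyte lists were left out of this rule and were summarized instead. Any other gene named is marked as picked with its values known, as was the 250 kb neighbor distance. Shared sequence is the percent of 50-base stretches of a gene's longest transcript found in another gene's GENCODE transcripts, on either strand. Use of strand in the authors' counting is not stated in those sources. RefSeq promoters on GRCm38.p6 were searched on both strands. List counts, fold limits, nearest genes and motif search were tested on simulated data. Alternatives were a stricter q, 4-fold, a 5 FPKM minimum, pseudocounts of 0.1 and 5, and 2 scalings. Python 3.11.15, numpy 2.4.6, pandas 2.3.3 and matplotlib 3.10.9 were used.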

Additional observations from a re-analysis of the deposited data

How the results depend on the processing

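No paired analysis was possible because values per sample were not used here, only 1 per genotype. Leaving out each sample, and limma on sample values, could not be run for that reason. With q of at most 0.01, at least 4-fold, at least 5 FPKM in the higher genotype, log2 ratios centered on the median of listed genes, or the same total FPKM over listed genes, 5 members rose. Centering raised every log2 ratio by 0.757. The same total raised the log2 of knockout FPKM by 0.200 before 1 was added, so low genes shifted less. Neither turned the direction of any of 129 listed genes of the lists. This was fixed by the authors' call, because a shift of 0.200 is less than 2-fold. The smallest fall among these genes, a log2 ratio of -1.12, was larger in size than the centering shift. The members' median log2 ratio, 3.55, lay between 3.37 (pseudocount 5) and 4.31 (centered). Of 28 recomputed member ratios, 28 kept their direction. That outcome was fixed beforehand and is no test. A pseudocount cannot reverse a direction, and both scaling shifts were smaller than every member's log2 ratio, of which -2.33 (Ltf) was the smallest in size. With at least 5 FPKM, granulocyte transcription factors that fell went from 2 to 1, stefins that rose from 3 to 1 and eosinophil markers that rose from 3 to 0. With q of at most 0.01, resistin family genes that rose went from 2 to 1. These limits keep fewer genes by construction.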

Other observations

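Further genes were chosen after their values were seen, so they are descriptions and add no support to the pattern of the members. Wfdc21, a whey-acidic protein gene high in mouse neutrophils, rose 14.5-fold from 5.54 to 80.1 FPKM, and its relative Wfdc17 rose 2.45-fold, while Wfdc18 of the same family fell 6.16-fold from 225 to 36.5 FPKM. Asprv1, Mcemp1 and Ifitm6, all expressed by mouse granulocytes, rose 9.99-fold, 4.81-fold and 10.6-fold. The stefin-like gene Gm5483 rose from 3.35 to 25.8 FPKM (authors' deposited table, q = 0.00630). Low-level granulocyte genes rose too: Mrgpra2b from 0.352 to 3.10 FPKM (q = 0.0292), Prok2 from 0.333 to 2.10 FPKM (q = 0.0148) and Nlrp12 from 0.453 to 2.10 FPKM (q = 0.00384), with these q from the authors' deposited table. Osm, the cytokine oncostatin M, rose from 1.54 to 18.7 FPKM, and Cd300lf, a myeloid receptor gene, from 7.30 to 46.8 FPKM.

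Adhesion genes that let leukocytes leave vessels, also chosen after their values were seen, rose: Selp 5.52-fold, Icam1 2.22-fold and Sele 3.36-fold (authors' deposited table, q = 0.000694 for Sele). Next to Ltf, the listed gene Ccrl2, a chemerin-binding receptor gene 11.7 kb away, rose from 10.2 to 34.2 FPKM while Ltf fell. The listed gene nearest to Ly6g, I830127L07Rik at 20.1 kb, rose 3.95-fold from 1.89 to 7.47 FPKM (authors' deposited table, q = 0.00753). BC025446, 57.3 kb from Ly6g, fell 18.4-fold from 85.7 to 4.66 FPKM.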
